A study of Homo sapiens with 46 samples.

Results

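Transcript levels are described here for SRF and 9 genes that encode actin or proteins that act on actin: ACTB, ACTG1, VCL, TAGLN, TAGLN2, MYL9, TPM1, TPM2 and FHL2. The genes were listed by name as SRF and its targets, with earlier results of these data known. Counts of calls among them, set beside shares of all genes, are therefore descriptions only. Each symbol matched 1 row of the table of raw counts, so that 10 of 62756 genes are covered. All 46 RNA-seq libraries came from DLD-1, an adherent line established from a human colorectal adenocarcinoma. The untagged parental line, whose genotype is given as WT, was compared with 3 lines in which an auxin-inducible degron was fused to the N-terminus of an endogenous lamin: LA/C-AID (called LAC below), LB1-AID (LB1) and LB2-AID (LB2). Lamins form the filament layer under the inner nuclear membrane, and the degron sends the tagged protein to the proteasome when the plant hormone auxin is present. Each line was kept in 1 mM auxin for 16 or 96 h or was sampled at 0 h, which gave 12 groups of 4 libraries, except for LB1 at 0 h and LB2 at 96 h with 3 each. The parental line received auxin too and was included to list the genes that respond to auxin without a tag. Replicates were separate wells, so a p-value measures the spread between wells. The labels do not say whether the 0 h wells received the solvent (DMSO) or whether a tagged line is a single clone. The degron acts on the protein, so lamin transcript counts do not check that the lamin was lost.

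SRF, the serum response factor, is a DNA-binding protein that recognises a short A/T-rich element called the CArG box. Its partners of the MRTF family bind monomeric actin. When actin polymerises MRTF is released, enters the nucleus and drives SRF targets, many of which are parts of the actin cytoskeleton. SRF is itself among these targets. In epithelial cells such as those of the colon, ACTB and ACTG1 supply the cytoplasmic actins, while TAGLN, MYL9 and TPM2 are best known from smooth muscle and fibroblasts.

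The promoters below are printed because they hold a CArG box, the element that SRF recognises. RefSeq promoters (GRCh38.p14, 250 bases before to 50 bases after an annotated start) were in the table used here for 7 of the 10 genes: SRF, ACTG1, VCL, TAGLN2, TPM1, TPM2 and FHL2. They were searched on either strand for the 10-base CArG box, which is CC, then any 6 bases that are A or T, then GG, and whose reverse complement is again a CArG box. It was found in 454 of 35116 promoters of all genes (1.29%), and in 5 of the 14 promoters of the 7 genes, which belong to SRF, ACTG1 and FHL2. The promoters of VCL, TAGLN2, TPM1 and TPM2 held no match within this window. Each sequence is the 120 bases before the start, read 5′ to 3′ on the strand of the gene, with the CArG box in capitals. SRF lies on the plus strand (chr6:43171149-43171268) and has 2 boxes within 30 bases of the start. ACTG1 (chr17:81512800-81512919, minus strand) has 1 box, whose first base is 94 bases before the start. FHL2 is shown for 2 starts, both on the minus strand, the first at chr2:105438514-105438633 and the second at chr2:105399052-105399171.
SRF: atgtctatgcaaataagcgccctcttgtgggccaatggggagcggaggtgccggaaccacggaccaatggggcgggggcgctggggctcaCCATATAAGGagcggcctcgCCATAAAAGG
ACTG1: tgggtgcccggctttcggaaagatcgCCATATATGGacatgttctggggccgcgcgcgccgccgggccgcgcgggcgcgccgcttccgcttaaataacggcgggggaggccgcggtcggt
FHL2 first start: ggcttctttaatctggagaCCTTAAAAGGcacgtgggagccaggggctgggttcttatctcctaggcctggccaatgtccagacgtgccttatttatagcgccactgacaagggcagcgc
FHL2 second start: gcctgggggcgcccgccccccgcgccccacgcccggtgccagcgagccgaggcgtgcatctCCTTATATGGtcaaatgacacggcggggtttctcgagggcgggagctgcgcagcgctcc

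A match to the motif is a description of the sequence and not a measured binding site. Among 56 further genes of the SRF and actin pathway, promoters were found for 54, and 12 of these genes had a CArG box. Over all genes with a promoter, 438 of 27305 had a CArG box. The boxes of FLNA (chrX:154374635-154374754, minus strand), which encodes the actin crosslinker filamin A, and of CNN2 (chr19:1026488-1026607, plus strand), which encodes calponin 2, are shown because the counts of these genes are described further on.
FLNA: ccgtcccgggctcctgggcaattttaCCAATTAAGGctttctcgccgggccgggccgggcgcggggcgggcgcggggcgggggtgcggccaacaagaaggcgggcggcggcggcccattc
CNN2: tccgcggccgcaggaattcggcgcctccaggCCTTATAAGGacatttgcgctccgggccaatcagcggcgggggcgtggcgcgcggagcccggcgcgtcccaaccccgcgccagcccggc

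Libraries held from 479446 to 37309421 counts (median 11533218). Of the 6 libraries under 5000000 counts, 5 were at 0 h and the least deep was replicate 3 of LB2 at 16 h. Levels are CPM, counts per 1000000 counts of a library, after TMM scaling, which makes libraries comparable. Epithelial markers (7 of 7 detected, among them EPCAM, CDH1 and KRT8) summed to between 4976 and 11547 CPM. Of these, KRT8 and KRT18 had the highest means (4223 and 1599 CPM), while VIL1 was near silent, with a mean of 1.41 CPM. The sum of 8 smooth muscle and fibroblast markers lay between 2.23 and 9.96 CPM. COL1A2 and DCN, 2 of these 8, were at 0 in all libraries. MYH11 and COL1A1 had the highest means of the 8 (3.49 and 1.47 CPM). The sum of 3 endothelial markers, of which VWF had the highest mean (6.72 CPM), lay between 2.18 and 17.5 CPM. The leukocyte marker PTPRC lay between 0 and 0.927 CPM. Log2 fold changes varied with GC content in the tagged lines, most in LAC, where genes with more GC had lower values. Across 8547 genes, which are not independent, Spearman's correlation of the 2 measures in LAC was -0.71 at 16 h and -0.66 at 96 h, while it was -0.48 and -0.21 in LB2, 0.23 and -0.17 in LB1, 0.01 and 0.02 in the parental line, and 0.49 for LAC against the parental line at 0 h. Where this trend changes a result, the value after removing it is given beside that result.

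The 10 genes differed widely in level. Per kilobase of the gene length in the table, and as means over the 46 libraries, ACTB stood at 1360 CPM and ACTG1 at 826. TAGLN2, a calponin-related protein that binds actin filaments, followed at 71.5 CPM per kilobase. VCL (vinculin, which links actin to adhesion sites) stood at 45.5, FHL2 (a LIM-domain protein that binds SRF) at 19.1, SRF at 13.2 and TPM1 (a tropomyosin, which coats actin filaments) at 9.69. The smooth muscle genes TAGLN (transgelin), TPM2 (a second tropomyosin gene) and MYL9 (a myosin regulatory light chain) stood at 0.671, 0.237 and 0.172 CPM per kilobase. These values depend on the gene length used, which was 13765 bases for TPM1 and 4231 for SRF. In CPM not divided by length, TPM1 (mean 133) stood above FHL2 (126) and SRF (55.9). ACTB alone took 0.592% of all counts and ACTG1 0.333%. Counts of named pseudogene copies were 0.0561% of those of ACTB, 0.182% of those of ACTG1 and 0.906% of those of TAGLN2. Genes on the opposite strand overlap several of the 10, and with no stated strand setting such reads cannot be told apart. AP3M1, which overlaps VCL, had counts equal to 28.7% of those of VCL. PCSK7, which overlaps TAGLN, had 26262 counts against 2485 for TAGLN, and DLGAP4-AS1 had 518 against 270 for MYL9.

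**Figure D1:**
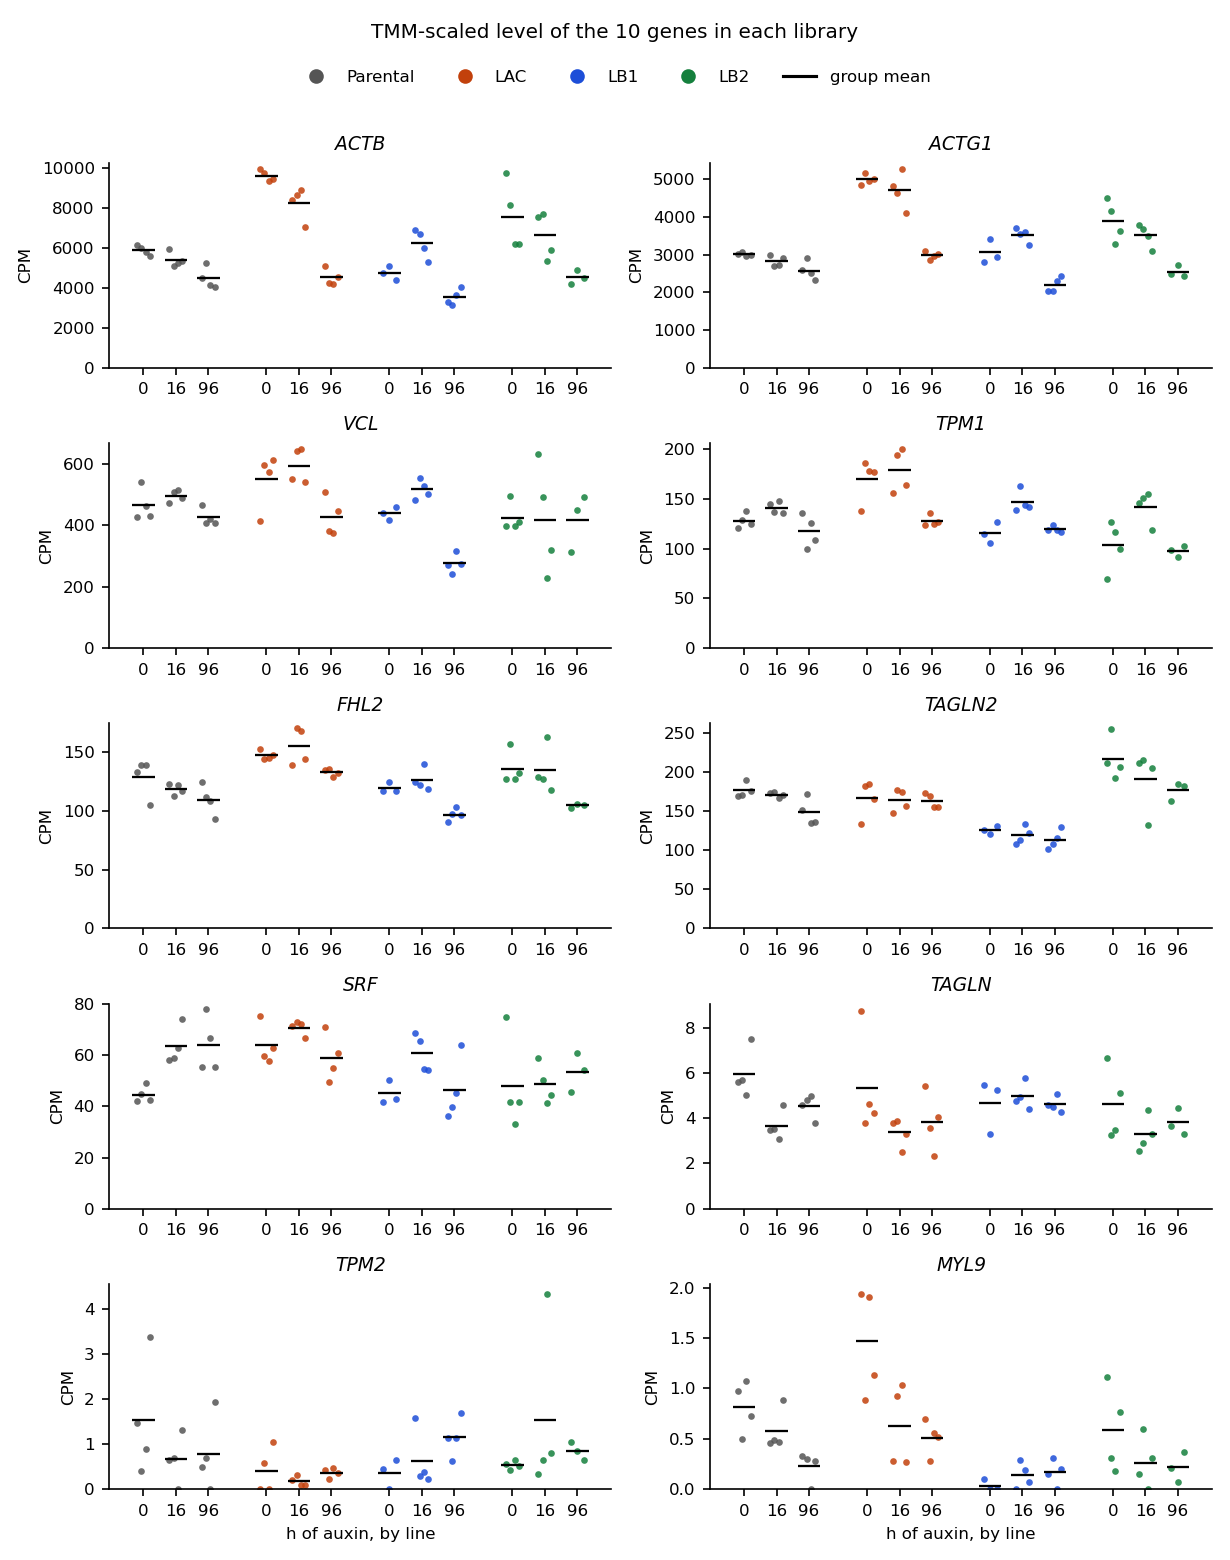
Level of each of the 10 genes in every library, in TMM-scaled CPM on linear axes that start at 0 and differ between panels. Points are libraries, grouped by line and by h of auxin, and black bars are group means; ACTB fell from a mean of 9599 to 4509 CPM in LAC, whereas TPM2 and MYL9 stayed below 5 CPM in every library.

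After 96 h of auxin the cytoplasmic actin genes were called lower in 3 of the 4 lines each, ACTB in the parental line, LAC and LB2 and ACTG1 in LAC, LB1 and LB2, with the largest log2 change of either in LAC. After removal of the GC and length trend this order held for ACTB (-0.89 in LAC and -0.66 in LB2) but not for ACTG1 (-0.46 and -0.49). SRF itself was called lower in no line. In the parental line at 16 h, SRF was the only gene of the 10 called at an adjusted p under 0.05, where 9.01% of all 21484 tested genes were called and 4.23% were called higher. At 96 h, 2 of the 10 were called in the parental line (SRF higher and ACTB lower), beside 7.78% of all genes (3.94% higher and 3.84% lower). In LAC 0 of the 10 were called at 16 h, beside 1.78% of all genes, and 3 at 96 h (ACTB, ACTG1 and TPM1, all lower), beside 15.4% (8.64% lower). LB1 had 0 calls at 16 h, beside 1.5% of all genes, and 2 at 96 h (ACTG1 and VCL, both lower), beside 3.17% (2.12% lower). LB2 had 0 calls at 16 h, beside 1.81% of all genes, and 3 at 96 h (ACTB, ACTG1 and FHL2, all lower), beside 3.55% (1.6% lower). At 16 h, LAC had 2 genes at an unadjusted p under 0.05, LB1 had 3 and LB2 had 1, while limma voom called 0, 2 and 1. The median log2 fold change of the 10 genes at 96 h was -0.24 in the parental line, -0.39 in LAC, -0.14 in LB1 and -0.21 in LB2, against medians of all tested genes of -0.03, 0.03, 0.04 and -0.00. The 16 h and 96 h comparisons of a line share its 0 h libraries. The calls in the parental line depended on the scaling: with RLE scaling, or scaling by library size only, SRF was called at neither time, and the 10 genes gave 1 lower call and none higher at 16 h and 4 lower calls and none higher at 96 h. At 16 h these scalings put the median log2 fold change of all genes in the parental line at -0.14 and -0.15, against -0.04 with TMM. Tested without the low-count filter, 5 of the calls at 96 h were lost, namely ACTB in the parental line, TPM1 in LAC, ACTG1 in LB1, and ACTG1 and FHL2 in LB2 (edgeR adjusted p = 0.355, 0.269, 0.369, 0.106 and 0.541). These are bulk RNA measurements, in which fewer cells of a state and less RNA per cell cannot be told apart.

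**Figure D2:**
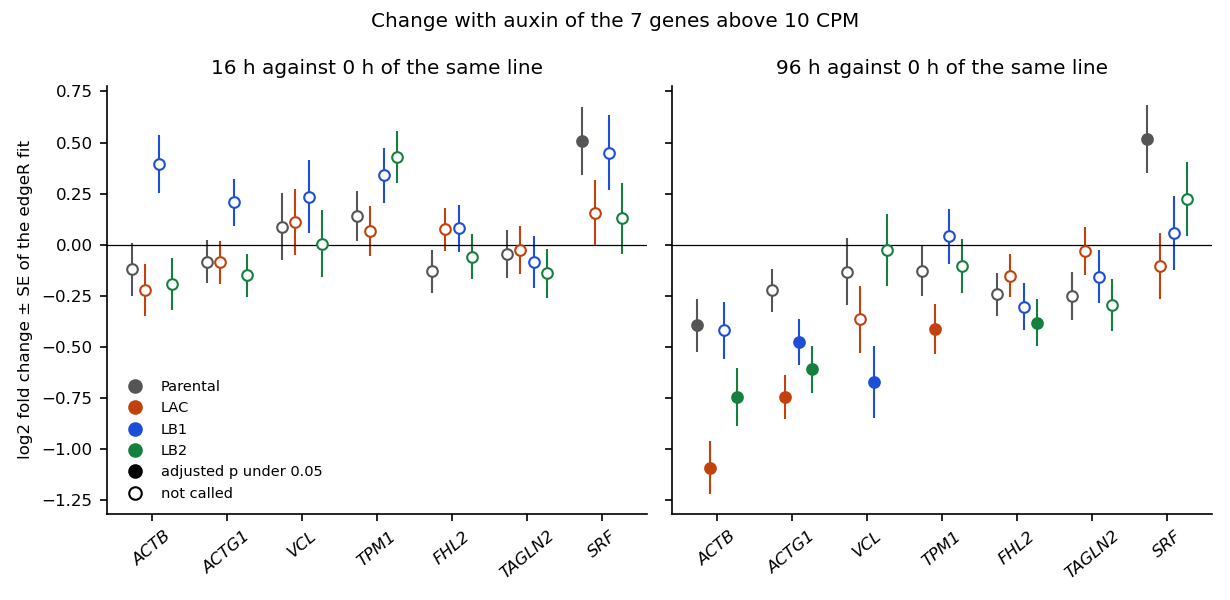
log2 fold change at 16 h (left) and 96 h (right) against 0 h of the same line for the 7 genes above 10 CPM, with the SE of the edgeR fit as bars. Filled points passed an adjusted p under 0.05 and open points did not; ACTB in LAC at 96 h (-1.09) lies lowest.

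SRF, the transcription factor itself, rose in the parental line, and no tagged line gave a call, but no difference from the parental response was called by edgeR either. In the parental line its level was 42.0, 44.7, 49.0 and 42.5 CPM in the 4 libraries at 0 h. At 16 h it was 58.1, 58.8, 62.9 and 74.0 CPM, and at 96 h it was 55.2, 77.9, 66.7 and 55.2 CPM. The lowest library at either time lay above the highest at 0 h. Such separation of groups is described here and below without a test, and its share over all genes was not computed. The log2 fold change was 0.51 ± 0.17 (SE) at 16 h (edgeR adjusted p = 0.0439) and 0.52 ± 0.17 at 96 h (edgeR adjusted p = 0.0432). Both lie close to the threshold, and with DESeq2 neither was called (adjusted p = 0.0913 and 0.0667). The call at 16 h was lost when any 1 library was left out except replicate 2 at 0 h or replicate 2 at 16 h, with adjusted p from 0.056 to 0.19. The call at 96 h was lost likewise except without replicate 2 at 0 h or replicates 1 or 4 at 96 h, with adjusted p from 0.0538 to 0.114. LAC started higher, at 63.8 ± 7.83 CPM (SD, n = 4) at 0 h against 44.5 ± 3.16 (n = 4) in the parental line. That difference in log2 level was 0.51 ± 0.17 (SE; edgeR adjusted p = 0.0286). It was called in 5 of 9 alternative settings. Among those that lost the call were removal of the GC and length trend (0.27, adjusted p = 0.101) and scaling by library size only (0.33, adjusted p = 0.122). Without replicate 4 of the parental line at 0 h the adjusted p was 0.0689. At 16 h SRF stood at 70.7 ± 2.9 CPM in LAC (SD, n = 4), at 60.8 ± 7.46 in LB1 (n = 4) and at 48.7 ± 7.72 in LB2 (n = 4), against 45.1 ± 4.69 (n = 3) in LB1 and 47.8 ± 18.4 (n = 4) in LB2 at 0 h. At 96 h it stood at 59.0 ± 9.27 CPM in LAC (SD, n = 4), 46.3 ± 12.3 in LB1 (n = 4) and 53.5 ± 7.56 in LB2 (n = 3). In LB1 the 4 libraries at 16 h, from 54.2 to 68.8 CPM, lay above the 3 at 0 h, from 41.8 to 50.4, with a log2 fold change of 0.45 ± 0.18 (SE; edgeR adjusted p = 0.207). The LB1 change at 16 h minus the parental one was -0.06, with a 95% interval from -0.54 to 0.42. The log2 change at 96 h in LAC minus that in the parental line was -0.62, with a 95% interval from -1.07 to -0.17, and was not called (edgeR adjusted p = 0.0867). It was called without replicate 1 of LAC at 96 h (-0.76, adjusted p = 0.0307) and with limma voom (adjusted p = 0.0371), and after removal of the GC and length trend it was -0.24 (adjusted p = 0.383).

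ACTB encodes beta-actin, the more abundant of the cytoplasmic actins. At 0 h its level in the parental line was 6141, 5994, 5773 and 5566 CPM, and at 96 h 4469, 5229, 4149 and 4015 CPM. In LAC it went from 9912, 9734, 9326 and 9426 CPM at 0 h through 8379, 8631, 8901 and 7035 at 16 h to 5091, 4217, 4195 and 4535 at 96 h. In neither line did the libraries at 0 and 96 h overlap, and the levels of LAC, which began far above those of the parental line, ended among those of the parental line at 96 h. ACTB fell by 1.09 ± 0.13 (SE) on the log2 scale in LAC, to 0.47 of its 0 h level (edgeR adjusted p = 4.6e-08). In the parental line it fell by 0.39 ± 0.13 (edgeR adjusted p = 0.0471), a call that was kept without replicate 2 at 96 h but lost without any other of the 8 libraries (adjusted p from 0.0706 to 0.153). LB2 libraries stood at 9735, 8111, 6176 and 6193 CPM at 0 h and at 4200.1, 4876 and 4461 at 96 h. The fall of 0.74 ± 0.14 on the log2 scale in LB2 was called (edgeR adjusted p = 0.000612), but not when the LB2 groups were fitted without the other lines (adjusted p = 0.158). LB1 libraries stood at 4711, 5064 and 4386 CPM at 0 h and at 3296, 3132, 3652 and 4041 at 96 h, again without overlap. The log2 fold change of -0.42 ± 0.14 in LB1 missed the threshold (edgeR adjusted p = 0.0872). It passed in 4 of 9 alternative settings: the LB1 groups alone, DESeq2, removal of the GC and length trend, and limma voom (adjusted p = 0.0257, 0.0281, 0.031 and 0.00651). At 16 h the log2 fold changes were -0.12 in the parental line, -0.22 in LAC, 0.39 in LB1 and -0.19 in LB2, none of them called in the edgeR fit of all libraries. The LB1 value was called with limma voom and without the libraries under 5000000 counts (adjusted p = 0.0155 and 0.0352), and the parental one with the parental groups alone (0.0398). The 4 groups at 96 h had the 4 lowest of the 12 group means, from 3530.2 CPM in LB1 to 4513 in LB2, and apart from LB1 they lay within their SDs of each other.

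ACTG1 encodes gamma-actin, the other cytoplasmic isoform, whose protein differs from beta-actin at a few residues only. In LAC its level was 4860.4, 5172, 4956 and 5009.8 CPM at 0 h and 3094, 2866, 2962 and 3017 at 96 h. In LB1 it was 2811, 3429 and 2938 CPM at 0 h and 2033, 2034, 2299 and 2445 at 96 h. In LB2 it was 4506, 4161, 3276 and 3628 CPM at 0 h and 2479.6, 2733 and 2440.0 at 96 h. All libraries at 96 h lay below all those at 0 h in each of these lines, and also in the untagged parental line (values below). On the log2 scale ACTG1 fell by 0.74 ± 0.11 (SE) in LAC (edgeR adjusted p = 2.16e-06), by 0.47 ± 0.11 in LB1 (edgeR adjusted p = 0.00818) and by 0.61 ± 0.11 in LB2 (edgeR adjusted p = 0.000564). After removal of the GC and length trend the fall in LAC was 0.46 (adjusted p = 0.00119). The LB1 call was lost without replicate 2 at 0 h (adjusted p = 0.121), and the LB2 call when only the LB2 groups were fitted (adjusted p = 0.166). In the parental line ACTG1 stood at 3007, 3081, 2969 and 2981 CPM at 0 h and 2583, 2908, 2502 and 2324 at 96 h. The parental log2 fold change of -0.22 ± 0.10 was not called (edgeR adjusted p = 0.189), although it was in 5 of 9 alternative settings, with values from -0.32 by library size only to -0.27 with limma voom. At 16 h the group means were 2839.6 ± 141 CPM (SD, n = 4) in the parental line, 4712 ± 484 (n = 4) in LAC, 3531 ± 190.5 (n = 4) in LB1 and 3513 ± 311 (n = 4) in LB2, with no call against 0 h.

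Because any scaling of a library divides out of it, the ratio of ACTB to ACTG1 counts was also taken in each library, a measure chosen after the data were seen. In LAC the ratio was 2.04, 1.88, 1.88 and 1.88 at 0 h, 1.74, 1.86, 1.68 and 1.71 at 16 h and 1.65, 1.47, 1.42 and 1.5 at 96 h. In the parental line it was 2.04, 1.95, 1.94 and 1.87 at 0 h and 1.73, 1.8, 1.66 and 1.73 at 96 h. In these lines the ratio of every library at 96 h lay below that of every library at 0 h. The mean went from 1.92 to 1.51 in LAC and from 1.95 to 1.73 in the parental line, each with an exact two-sided permutation p of 0.0286, the smallest that 4 against 4 libraries can give. The ratio in LAC at 16 h, 1.75 on average, gave the same p. None of the 8 comparisons passed after Benjamini-Hochberg adjustment over them (adjusted p = 0.0762 for these 3, from the exact permutation test). LB1 had a mean ratio of 1.55 at 0 h and 1.6 at 96 h (exact permutation p = 0.4), and LB2 had 1.93 and 1.77 (exact permutation p = 0.229). The ratio shows unequal change of the 2 transcripts, not the change of either.

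**Figure D3:**
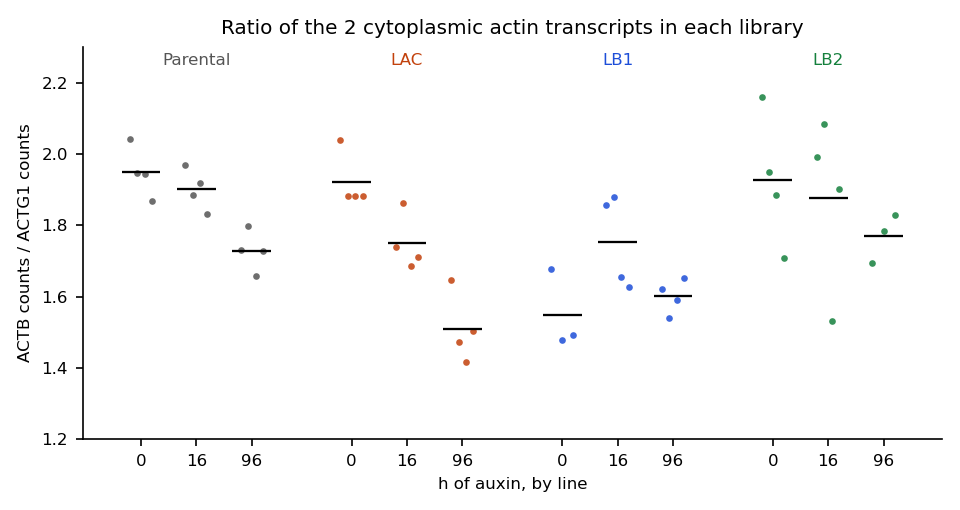
Ratio of ACTB to ACTG1 counts in each library, by line and h of auxin, on an axis that starts above 0; points are libraries and black bars are group means. In LAC the mean falls from 1.92 at 0 h to 1.51 at 96 h, and in LB1 it is 1.55 at 0 h.

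The lines already differed in these genes before auxin. LAC stood above the parental line in 4 of the 10 genes (SRF, ACTB, ACTG1 and TPM1) and below it in none, beside 15.8% of all genes called and 8.71% called higher. ACTB was 1.64-fold and ACTG1 1.66-fold higher in LAC (edgeR adjusted p = 0.000114 and 2.32e-06), with log2 differences of 0.54 and 0.53 after the GC and length trend was removed. TPM1 differed by 0.41 ± 0.12 (SE) on the log2 scale (edgeR adjusted p = 0.0168), and with scaling by library size only by 0.23 (adjusted p = 0.201). In LB1, 2 of the 10 were lower than in the parental line, TAGLN2 and MYL9, beside 4.05% of all genes (2.43% lower). In LB2, 1 was higher, beside 8.21% of all genes (3.91% higher): ACTG1, by 0.37 ± 0.11 (SE; edgeR adjusted p = 0.0184). The LB2 call was lost without the libraries under 5000000 counts (0.31, adjusted p = 0.104), and without replicate 1 or 2 of LB2 at 0 h (0.0524 and 0.068). The log2 difference of ACTB there, 0.36, was not called (edgeR adjusted p = 0.0697), but was in 3 of 9 alternative settings and without replicate 3 or 4 of LB2 (0.0342 and 0.0381). Without the low-count filter the calls of TPM1 in LAC, TAGLN2 and MYL9 in LB1 and ACTG1 in LB2 were lost (edgeR adjusted p = 0.0812, 0.385, 0.0953 and 0.246). The 3 comparisons share the parental libraries at 0 h. The 0 h libraries of each tagged line also serve in its changes with auxin, so a high start and a fall in LAC are not independent results.

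Whether auxin changed these genes more in a tagged line than in the untagged one was tested as the difference of the 2 log2 changes. At 96 h in LAC, 2 of the 10 differed, ACTB and ACTG1, beside 7.4% of all genes (4.3% lower). The ACTB change was lower in LAC by 0.70 ± 0.18 (SE) on the log2 scale (edgeR adjusted p = 0.0153) and, after removal of the GC and length trend, by 0.48 (adjusted p = 0.0342). It was not called without the low-count filter (-0.69, adjusted p = 0.092). The ACTG1 change was lower by 0.52 ± 0.15 (edgeR adjusted p = 0.0251). With the trend removed the ACTG1 difference was -0.24 (adjusted p = 0.329), with scaling by library size only it was -0.30 (adjusted p = 0.107), and without the filter the adjusted p was 0.278. Its call was also lost without replicate 2 of the parental line at 96 h, replicate 2 of LAC at 96 h or replicate 3 of LAC at 96 h, with adjusted p of 0.0597, 0.0595 and 0.0507. In these 2 genes the larger change in LAC came with a higher start, since the mean level at 96 h was 4509 ± 417 CPM (SD, n = 4) for ACTB in LAC and 4465 ± 543 (n = 4) in the parental line. For ACTG1 it was 2985 ± 95.9 CPM (SD, n = 4) in LAC and 2579 ± 244 (n = 4) in the parental line. At 16 h 0 of the 10 differed in LAC, beside 0.116% of all genes. LB1 had 0 of 10 at 16 h and at 96 h, beside 0.0279% and 1.04% of all genes, and LB2 had 0 of 10 at either time, beside 0.00465% and 0.368%. At an unadjusted p under 0.05 these counts were 0 for LAC at 16 h, 1 and 2 for LB1, and 0 and 1 for LB2, and DESeq2 called 0, 0, 0, 0 and 0. For ACTB at 96 h the 95% interval of the difference from the parental change ran from -0.40 to 0.35 in LB1 and from -0.72 to 0.02 in LB2. For ACTG1 it ran from -0.55 to 0.05 in LB1 and from -0.69 to -0.08 in LB2. All 6 differences share the parental libraries at 0 h. Those at 16 h also share the parental libraries at 16 h, and those at 96 h the ones at 96 h. The differences of a tagged line share its 0 h libraries.

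VCL, TPM1 and FHL2 were each called at 96 h in 1 line, and TAGLN2 in none. VCL stood at 439, 417 and 459.7 CPM at 0 h and at 272, 239, 317 and 273 at 96 h in LB1. This fall of 0.67 ± 0.18 (SE) on the log2 scale was called (edgeR adjusted p = 0.0192), and was kept without replicate 1 or 3 at 96 h but lost without any other of the 7 libraries (adjusted p from 0.050002 to 0.123, log2 fold change from -0.71 to -0.61). In LAC the log2 fold change of VCL at 96 h was -0.36 ± 0.16 (edgeR adjusted p = 0.128), which was called in 3 of 9 alternative settings, among them removal of the GC and length trend (-0.48, adjusted p = 0.0107). In LB2 at 16 h VCL ranged from 228 to 632 CPM over 4 libraries, the lowest being the least deep library. The VCL change in LB1 was not shown to differ from that in the parental line, with a difference of -0.54 and a 95% interval from -1.01 to -0.07 (edgeR adjusted p = 0.243, and 0.0376 with the 4 compared groups alone).

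TPM1, the tropomyosin gene that these cells express most among the 2 listed, stood at 138, 186, 178 and 177 CPM at 0 h and 124, 136, 125 and 127 at 96 h in LAC. Its fall of 0.41 ± 0.12 (SE) on the log2 scale (edgeR adjusted p = 0.0155) was lost without replicate 2 or replicate 4 of LAC at 0 h (adjusted p = 0.0568 and 0.0594), with scaling by library size only (-0.29, adjusted p = 0.09) and with the LAC groups alone (adjusted p = 0.0689). In LB2 at 16 h TPM1 stood at 145, 151, 154 and 119 CPM against 69.9, 127, 116 and 99.9 at 0 h, a log2 fold change of 0.43 that was not called (edgeR adjusted p = 0.0626). It was called without replicate 2 at 0 h (adjusted p = 0.0176) or replicate 4 at 16 h (0.0334), and in 3 of 9 alternative settings. FHL2, which binds SRF and is itself an SRF target, stood at 127, 157, 127 and 132 CPM at 0 h and 103, 106 and 105 at 96 h in LB2. The fall of 0.38 ± 0.11 (SE) on the log2 scale was barely called (edgeR adjusted p = 0.0486) and was kept without replicate 1 at 0 h but lost without any other of the 7 libraries (adjusted p from 0.0501 to 0.178). In the other lines the log2 fold change of FHL2 at 96 h was -0.24 (parental), -0.15 (LAC) and -0.30 (LB1), none of them called in the edgeR fit of all libraries. The parental one was called in 6 of 9 alternative settings, with values from -0.34 by library size only to -0.27 with limma voom. TAGLN2 was not called at any time of auxin in any line. At 0 h it stood at 126, 121 and 132 CPM in LB1 against 170.0, 171, 190.1 and 176 in the parental line. This difference of -0.48 ± 0.13 (SE) on the log2 scale was called (edgeR adjusted p = 0.019), and was kept without replicate 1 or 4 of the parental line but lost without any other of the 7 libraries (adjusted p from 0.0578 to 0.122). After removal of the GC and length trend it was -0.47 (adjusted p = 0.0572).

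The smooth muscle genes of the list were close to silent. TAGLN had 2485 counts, TPM2 372 and MYL9 270 over all 46 libraries, and TPM2 was at 0 in 5 libraries and MYL9 in 6. Intervals below are exact Poisson intervals of summed counts at 95% and cover counting error only. TAGLN stood at 5.61, 5.7, 5.02 and 7.49 CPM at 0 h in the parental line and at 3.46, 3.5, 3.09 and 4.56 at 16 h. This log2 fold change of -0.70 ± 0.24 (SE), although the libraries do not overlap, missed the threshold (edgeR adjusted p = 0.0623). It was called in 6 of 9 alternative settings, with values from -0.81 by library size only to -0.71 with limma voom. MYL9 had 2 counts in 31344736 in LB1 at 0 h (0.0638 CPM without TMM scaling, interval 0.00773 to 0.230) and 23 in 28539152 in the parental line (0.806, interval 0.511 to 1.21). The ratio of these was 0.0792, with an interval from 0.00905 to 0.32, and the call rests on those counts (edgeR adjusted p = 0.0239). It was kept without replicate 2 or 4 of the parental line but lost without any other of the 7 libraries (adjusted p from 0.0501 to 0.206). MYL9 was highest in LAC at 0 h, with 57 counts in 53665803 (1.06 CPM, interval 0.804 to 1.38). TPM2 ranged from 13 counts in 84965678 in LAC at 16 h (0.153 CPM, interval 0.0815 to 0.262) to 36 in 28539152 in the parental line at 0 h (1.26, interval 0.883 to 1.75), and was called in no comparison.

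The wider pathway was followed in 56 further genes in 4 lists, of which 3 are described one by one: SRF cofactors, actin isoforms with actin-binding proteins, and contractile or adhesion proteins. Of these, 52 could be tested, and MYOCD, ACTC1, ACTG2 and TAGLN3 were too low. At 96 h 10 of the 52 were called in the parental line (1 higher, 9 lower), 27 in LAC (1 higher, 26 lower), 11 in LB1 (all lower) and 11 in LB2 (1 higher, 10 lower, and 3 higher and 10 lower with RLE scaling). Over all genes, the shares called lower were 3.84% in the parental line, 8.64% for LAC, 2.12% for LB1 and 1.6% for LB2, and those called higher were 3.94% in the parental line, 6.74% for LAC and 1.95% for LB2. The median log2 fold change of the 52 was -0.15 for the parental line, -0.45 for LAC, -0.26 for LB1 and -0.21 for LB2. These lists too were chosen with earlier results of these data known, so their counts are descriptions only. After removal of the GC and length trend, LAC had 2 higher and 22 lower calls. Most calls lay among the contractile and adhesion genes, of which 26 were tested: 6 were lower in the parental line, LAC had 15 lower, LB1 8 and LB2 6, and none was higher in any line. Of 10 actin isoforms and actin-binding genes, 1, 5, 2 and 2 were lower. The cofactors were called in LAC alone at this time, where MRTFA and ELK1 were lower (2 of 5), by 0.69 and 0.55 on the log2 scale (edgeR adjusted p = 0.00167 and 0.00566). After removal of the GC and length trend neither was called (-0.26 and -0.28, adjusted p = 0.0874 and 0.0909).

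Of these genes, the 3 with the lowest adjusted p in each line at 96 h were named by rule. CALD1, which encodes the actin- and myosin-binding caldesmon, was among them in every line. Its level was 26.4 ± 1.65 CPM (SD, n = 4) at 0 h and 7.17 ± 1.58 (n = 4) at 96 h in the parental line, which carries no degron. In LAC it was 20.6 ± 3.99 CPM (n = 4) and 6.03 ± 1.1 (n = 4), in LB1 24.9 ± 5.9 (n = 3) and 5.02 ± 1.03 (n = 4), and in LB2 11.1 ± 3.05 (n = 4) and 4.11 ± 0.265 (n = 3). The log2 fold changes were -1.86 ± 0.20 (SE), -1.80 ± 0.19, -2.25 ± 0.21 and -1.50 ± 0.23, with edgeR adjusted p of 5.09e-09, 4.19e-09, 3.62e-10 and 2.4e-05. TMSB4X, which encodes thymosin beta 4, a protein that sequesters monomeric actin, fell by 0.77 in the parental line and by 0.90 in LB2 (edgeR adjusted p = 6.24e-05 and 2.34e-05). DIAPH3, a formin that nucleates actin filaments, fell by 0.69 in the parental line (edgeR adjusted p = 1.91e-05). CNN3, a calponin, fell by 0.67 in LB1 (edgeR adjusted p = 0.000234) and by 0.65 in LB2 (0.000509). With the LB2 groups fitted alone, neither TMSB4X nor CNN3 was called in LB2 (adjusted p = 0.07 and 0.134).

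FLNA and CNN2, whose CArG boxes are printed above, were named in LAC, and FLNA also in LB1. FLNA went from 5161 ± 456 CPM (SD, n = 4) to 2069 ± 514 (n = 4) in LAC, a fall of 1.32 ± 0.18 (SE) on the log2 scale (edgeR adjusted p = 6.43e-07). In LB1 it went from 2767 ± 232 CPM (n = 3) to 1083 ± 201 (n = 4), a fall of 1.35 ± 0.19 (edgeR adjusted p = 1.59e-06). CNN2 went from 945 ± 83.5 CPM (n = 4) to 462 ± 52.2 (n = 4) in LAC, a fall of 1.03 ± 0.13 (edgeR adjusted p = 1.79e-07). As with ACTB and ACTG1, both genes were higher in LAC than in the parental line at 0 h, by 0.57 for FLNA and 0.66 for CNN2 (edgeR adjusted p = 0.0194 and 0.00036). The FLNA difference was lost after removal of the GC and length trend (0.37, adjusted p = 0.0701), with scaling by library size only (0.39, adjusted p = 0.0735), and without replicate 4 of the parental line or replicate 3 of LAC at 0 h (adjusted p = 0.0742 and 0.0505). The change in LAC differed from the parental one at 96 h in 9 of the 52 genes, beside 7.4% of all genes (4.3% lower). All 9 had a lower value in LAC: ELK1, CNN2, TLN1, ZYX, CFL1, ACTN1, FLNA, LIMK1 and RHOB. With scaling by library size only, which moves the median of all genes in this comparison from 0.06 to 0.27, 3 genes were lower and 1 higher. The count was 4 without replicate 4 of the parental line at 0 h or replicate 2 of it at 96 h, and 3 without replicate 2 or replicate 3 of LAC at 96 h. After removal of the GC and length trend FLNA, ZYX, CFL1 and RHOB were not called (edgeR adjusted p = 0.177, 0.279, 0.127 and 0.0655), while ELK1, CNN2, TLN1, ACTN1 and LIMK1 were, among 9 lower calls and 1 higher. In LB1 and LB2 0 of the 52 differed from the parental change at 96 h by edgeR, beside 1.04% and 0.368% of all genes, with 10 and 4 at an unadjusted p under 0.05.

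**Figure D4:**
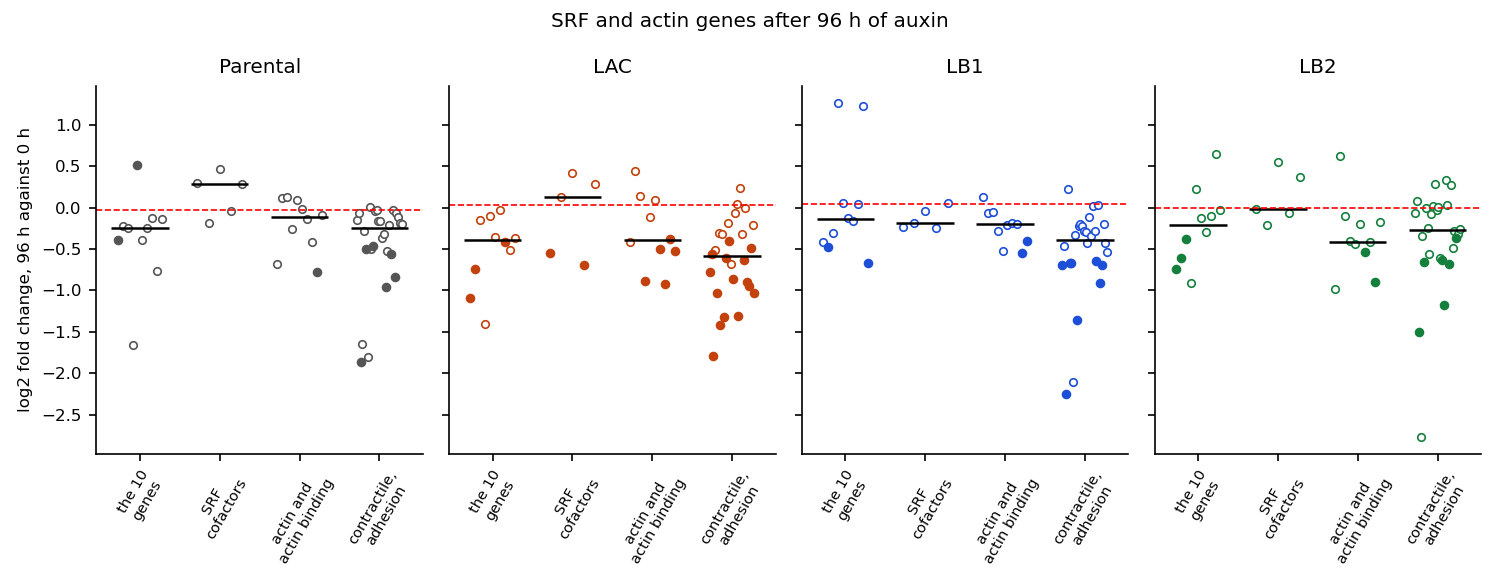
log2 fold change at 96 h against 0 h in each line for the 10 genes and 3 lists of further genes. Each point is a gene, filled where the edgeR adjusted p is under 0.05; black bars are list medians and the red dashed line is the median of all 21484 tested genes; of the 26 contractile and adhesion genes, 15 are called lower in LAC and 8 in LB1.

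Across the 12 group means, the 8 genes with a mean of at least 1 CPM did not share 1 pattern. The Pearson correlation of each gene with the mean of their standardized log2 levels, which includes the gene itself, was 0.94 for ACTB, 0.93 for ACTG1, 0.91 for FHL2, 0.88 for VCL and 0.73 for TPM1. It was 0.56 for SRF, 0.40 for TAGLN2 and -0.00 for TAGLN. ACTB and ACTG1 were the closest pair (r = 0.96), and SRF correlated with them at 0.34 and 0.39. Among 9621 other genes with a symbol and at least 10 CPM, the 5 closest to the mean pattern were PLOD3 (r = 0.98), CITED2 (0.97), ACTR1A (0.96), CCND3 (0.96) and GNAI2 (0.96). These correlations describe 12 groups that share lines and times, and they were not tested.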

How the data were processed

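Raw counts per gene of the 46 libraries were deposited in 1 table. Per the file headers, the counts were made with featureCounts 1.6.4 in the environment of nf-core/rnaseq 1.4.2. The submitters' processing notes name STAR 2.7.10a, SAMtools 1.10, deepTools 3.4.5, featureCounts 1.6.4, DESeq2 1.40.2 and GRCh38, with no role for each. Per the labels' protocols, total RNA was depleted of ribosomal RNA and sequenced in pairs from a stranded kit. The annotation release, the strand setting and the treatment of multi-mapping reads are not given in the sources used here. All count columns matched a library by name (0 unmatched), and 1 gene broken over 3 lines was left out. Positions of genes and their overlaps follow the table, and GC content comes from GENCODE 29, which held 92.9% of the genes.

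All 46 libraries (479446 to 37309421 counts) entered 1 quasi-likelihood fit of edgeR 4.0.16 in R 4.3.3, with a coefficient for each of 12 groups, TMM scaling and filterByExpr by group (21484 genes kept). In 17 comparisons, two-sided p-values were Benjamini-Hochberg adjusted over all genes tested, with calls at an adjusted p under 0.05. SEs were derived from the F statistic, and 95% intervals of log2 differences are 1.96 SE wide on each side. Deviations of same-numbered replicates from their group means all correlated above 0.1 in 1 of 12 pairs of groups within a line (LAC at 0 and 16 h). Their mean correlation over the 12 pairs was 0.0221. Over all lines 7 of 66 pairs passed 0.1, with the highest mean for LAC and LB2 at 0 h (0.65). The labels give the numbers no shared source, so the replicate number as a block was an alternative only. The 10 genes and all lists were chosen with earlier results of these data known. The rule for named genes took all 10 genes, the 3 further pathway genes with the lowest adjusted p in each line at 96 h, and the 5 genes most like the mean pattern of the list. Names outside that rule were chosen after their values were seen. Alternatives were RLE scaling, scaling by library size, no low-count filter, the replicate number as a block, removal of a GC and length trend, leaving out libraries under 5000000 counts, DESeq2 1.42.0, limma 3.58.1 voom with sample weights, the compared groups alone, and leaving out each library. Results of 1 gene list on its own are not reported here. The fit was tested on simulated data.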

Additional observations from a re-analysis of the deposited data

Results flagged for a closer look

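Of 110 sets of libraries, each 1 group for 1 gene of the 10 or for the actin ratio, 8 held a library far from the others by Dixon's test, which chance flags in about 1 of 20. For VCL, replicate 2 of LB2 at 0 h stood at 494 CPM (median of the others 398). For TAGLN, replicate 1 of LAC at 0 h stood at 8.74 CPM (4.22). For TAGLN2, replicate 3 of LB2 at 16 h stood at 132.7 CPM (212), and in the same library, the least deep of all, TPM2 stood at 4.35 CPM (0.655). TPM2 was also high in replicate 1 of LB1 at 16 h, at 1.58 CPM (0.291). For MYL9, replicate 4 of the parental line at 16 h stood at 0.883 CPM (0.463) and replicate 3 at 96 h at 0 (0.299). The ratio of ACTB to ACTG1 in replicate 1 of LAC at 0 h was 2.04 (1.88). The TPM2 and MYL9 values rest on few counts.

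The change at 96 h in LAC minus that in the parental line was called by edgeR for ACTB (-0.70) and ACTG1 (-0.52). Among the further pathway genes it was called for ELK1 (-0.85), an SRF cofactor, and for RHOB (-0.68), LIMK1 (-0.88) and CFL1 (-0.63), which act on actin turnover or upstream of it. It was also called for CNN2 (-0.76), FLNA (-0.83), ACTN1 (-0.63), ZYX (-0.84) and TLN1 (-0.88), which encode actin-binding and adhesion proteins. The calls of ELK1, CNN2 and TLN1 were kept under all 25 alternatives, and those of the other genes were lost under some. The RHOB call (edgeR adjusted p = 0.0442) was kept in 3 of 9 alternative settings and lost in 8 of 16 fits with 1 library left out. In LB1 the change of DIAPH3 at 16 h differed from the parental one by 0.80, a call that was lost without the low-count filter and without 11 of the 15 libraries in turn. All these differences share the parental libraries at 0 h, and those in LAC also share the parental libraries at 96 h. Those in LAC come with the trend of fold change with GC content given for that line.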

How the results depend on the processing

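Of 68 single-gene tests under 1275 alternatives, 1071 kept direction and side of the threshold, 149 lost the call, 42 gained it and 13 changed sign. ACTB and ACTG1 in LAC, at 96 h and at 0 h against the parental line, kept their calls under all 17 alternatives run for each. These results share the libraries of LAC at 0 h and are not independent of each other. Of the sign changes, 12 were of ACTB in LB1 against the parental change at 96 h, whose main value was -0.02 and not called: it was 0.070 with RLE scaling, 0.15 by library size, 0.019 with the replicate block, 0.034 after removal of the GC and length trend, 0.070 with DESeq2, 0.052 with voom and between -0.083 and 0.030 when 1 library was left out. The remaining sign change was of ACTB in LB2 at 16 h (main -0.19, not called), which was 0.078 with voom. The cause was not tested.

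Of 421 alternatives for 22 counts of calls, 84 moved a count by over 1.5 times. For the 10 genes, the count in the parental line at 16 h (main 1) was 2 with the GC trend removed, 2 with voom, 3 with the compared groups alone and 0 to 1 with a library left out. At 96 h (main 2) it was 4 with RLE, 4 by library size, 1 without the filter, 4 with DESeq2, 5 with voom, 4 with the groups alone and 0 to 1 with a library left out. In LAC it was 1 at 16 h with the GC trend removed (main 0) and 5 at 96 h with voom (main 3). In LB1 at 16 h (main 0) it was 1 without the libraries under 5000000 counts and 2 with voom, and at 96 h (main 2) 1 without the filter and 0 to 2 with a library left out. In LB2 at 16 h (main 0) it was 1 with the replicate block, 1 with the GC trend removed, 1 with voom and 0 to 1 with a library left out, and at 96 h (main 3) 1 without the filter and 0 with the groups alone. For LAC against the parental change at 96 h (main 2) it was 1 by library size, 0 without the filter, 1 with the GC trend removed and 1 to 3 with a library left out, and for LB1 (main 0) 1 with the groups alone. Against the parental line at 0 h, LAC (main 4) had 2 by library size and 2 with the groups alone, and LB1 (main 2) had 0 without the filter, 1 with the GC trend removed, 1 with DESeq2 and 0 to 2 with a library left out. LB2 (main 1) had 2 with RLE, 0 without the filter, 2 with the GC trend removed, 0 without the libraries under 5000000 counts, 3 with DESeq2, 0 with the groups alone and 0 to 2 with a library left out. For the 52 further pathway genes at 96 h, the parental count (main 10) was 18 with voom and 20 with the groups alone, and the LB1 count (main 11) 17 with the GC trend removed, 18 with voom and 17 with the groups alone. The LB2 count (main 11) was 6 without the filter, 18 with DESeq2, 20 with voom, 2 with the groups alone and 7 to 10 with a library left out, 7 being without replicate 3 at 96 h. The count of LAC against the parental change (main 9) was 4 by library size, 15 with voom and 3 to 13 with a library left out. The replicate block (the numbers share no stated batch) changed no other count by more than 1.5 times, and TPM1 in LB2 at 16 h was 0.45 with it (adjusted p = 0.0412). The least deep library holds 479446 counts, so that 3 counts are 6.26 CPM there, above the level of TAGLN, TPM2 and MYL9 in most libraries.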

Other observations

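FHL1, a relative of FHL2 from the further pathway list, was singled out after its values were seen, because the lines differed in it before auxin. At 0 h its mean was 19.2 ± 3.61 CPM (SD, n = 4) in LAC, 0.793 ± 0.388 (n = 4) in the parental line, 0.0307 ± 0.0531 (n = 3) in LB1 and 0 in all 4 libraries of LB2. In LAC the lowest of the 4 libraries held 14.9 CPM, while the highest of the parental line held 1.24. At 96 h FHL1 stood at 7.27 ± 0.716 CPM (n = 4) in LAC, a log2 fold change of -1.42 ± 0.28 (SE; edgeR adjusted p = 0.000539).

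ACTA2, the smooth muscle actin gene and a textbook SRF target, was also chosen after its values were seen. It stood at 6.38 ± 2.76 CPM (SD, n = 4) at 0 h and 9.27 ± 0.467 (n = 4) at 96 h in LAC, a log2 fold change of 0.44 that edgeR did not call (adjusted p = 0.239). In the parental line it stood at 6.57 ± 1.43 CPM (n = 4) at 0 h and 7.03 ± 1.46 (n = 4) at 96 h.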
